A study of Mus musculus with 6 samples.

Results

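The 10 genes described here build the machinery that copies and transcribes mitochondrial DNA (mtDNA) and are themselves encoded in the nucleus. They were chosen by symbol (*Tfam*, *Tfb1m*, *Tfb2m*, *Polrmt*, *Polg*, *Polg2*, *Twnk*, *Ssbp1*, *Mgme1* and *Top1mt*), and all 10 were found among the 53465 genes of the count table. The 13 protein genes of mtDNA itself were used as the direction against which they were set. Oocytes came from female Kunming (KM) mice 9 to 10 months old, primed with pregnant mare serum gonadotropin in all groups, and were stripped of cumulus cells at the germinal vesicle stage. They were matured in M16 medium for 16 h, and RNA of the resulting MII oocytes was sequenced. Control pools were cultured without quercetin and treated pools with 10 μM quercetin, a plant flavonol, with 3 pools in each group. Each pool joined 15 oocytes of 3 mice, so neither single oocytes nor single mice can be told apart. The quercetin stock was in DMSO, and whether control medium held the solvent is not stated. Whether the pools of the groups shared mice is not stated either, and p-values measure the spread between these pools.

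Mitochondrial DNA is packed into nucleoids by TFAM, which also bends the promoters at which the RNA polymerase POLRMT and its initiation factor TFB2M start transcription. Replication needs the DNA polymerase gamma (POLG with its accessory subunit POLG2), the helicase Twinkle (*Twnk*) and the single-stranded DNA-binding protein SSBP1, while MGME1 trims DNA ends and TOP1MT relieves supercoiling. The mature oocyte holds more mtDNA than any other cell of the body, and its mtDNA is shared out among the cells of the early embryo largely without new replication. Nuclear transcription is mostly silent in the fully grown oocyte, so its mRNAs are for the most part a store laid down during growth.

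Many nuclear genes for mitochondrial proteins are known targets of NRF1 and of GABP, an ETS factor also called NRF2, and the promoters of the genes were searched for their core letters. RefSeq promoters (GRCm38.p6, 250 bases before to 50 bases after the start) were matched for 9 of the 10 genes. The ETS core CCGGAAG, read on both strands, was present in 6 of the 9, namely *Tfam*, *Polrmt*, *Polg*, *Polg2*, *Twnk* and *Ssbp1*. It was found in 8.86% of all 32851 promoters and in 17.3% of the 10490 promoters of genes tested for expression. Of 43 other listed nuclear genes of mitochondrial DNA and RNA with a promoter in the table, 14 had it. These 2 counts are of genes with a match in any of their promoters. The percentages here and below are shares of promoters, and the 10490 promoters belonged to 8200 tested genes. The full palindromic NRF1 motif was in none of the 9, in 0.971% of all promoters and in 1.97% of those of tested genes. Its shorter part GCATGCGC, which lies inside it, was in *Tfb2m* and *Polrmt*, in 2.71% of all promoters and in 5.26% of those of tested genes. A match describes letters only and shows neither binding nor an effect. The windows of 30 bases around the matches are printed on the strand of the gene to show the matched letters in their surroundings, and nothing here shows them to be particular to these genes. Capitals mark the motif or its reverse complement.

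Tfam, chr10:71238073-71238102, minus strand: cctgccgcggaCCGGAAGtccgggcttccc
Polrmt, chr10:79746606-79746635, minus strand: ccctaagagcgCTTCCGGcagtcgcagaac
Polg, chr7:79466293-79466322, minus strand: gaggacctcacCCGGAAGtccctctgcacc
Polg2, chr11:106779548-106779577, minus strand: cgggtgacgctCTTCCGGgggcgtggtcta
Ssbp1, chr6:40471410-40471439, plus strand: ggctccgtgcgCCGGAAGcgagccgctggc
Twnk, chr19:45006481-45006510, plus strand: ggagagttttgCTTCCGGagtcaccgcgag
Tfb2m (NRF1 letters), chr1:179546245-179546274, minus strand: ctaggtcgttcGCATGCGCcattcgtaatg

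In *Tfam*, *Ssbp1*, *Polrmt*, *Polg* and *Polg2* the ETS letters began between 29 and 47 bases before the start of transcription. The *Twnk* window shown began 66 bases before the second of its annotated starts, and a further match lay 110 bases before it. The NRF1 letters of *Tfb2m* began at base 14 of its transcript.

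The 6 libraries held 7880467 to 9938743 counts on genes, and a gene with 3 counts, taken as the least that shows it, was at 0.302 to 0.381 CPM (counts scaled to 1000000 per library). Amplified reads are not independent molecules, so this floor and the intervals below cover counting error only. As a check of the labelled cell type, the 12 oocyte markers summed to 11296 to 14588 CPM in control and 13596 to 15963 CPM in quercetin pools. The 16 cumulus and granulosa markers summed to 63.7 to 78.6 CPM and 79.7 to 86.5 CPM. Of these sums *Cyp19a1* made up 88.1%. Among the 16 markers, 5 to 8 reached 3 counts in a pool, and 7 were at 0 counts in every pool, including *Foxl2*, *Amh* and *Amhr2*. The part of the small difference between the groups in the cumulus and granulosa sum in the results below was not tested. In such bulk pools, fewer cells of a type and less RNA per cell cannot be told apart.

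Transcripts of the machinery were found at very unequal levels, and the initiation factor *Tfb2m* led. The RNA was amplified from poly(A) tails, so these levels are of RNA captured by its tail and may differ from the amounts stored. *Tfb2m* also shares 35.9% of its 31-base words with other genes, and the handling of reads with several matches is not known. Divided by the length of the principal transcript, *Tfb2m* stood at 22.8 CPM per kb on average over the 6 pools, from 17.7 to 28.7. *Tfb1m*, which methylates the ribosomal RNA of the mitochondrial small subunit, followed at 12.2 CPM per kb (7.86 to 14.4), and *Ssbp1* at 3.45 CPM per kb (2.70 to 5.06). The ranges of these 3 genes did not overlap each other or those of any other gene of the machinery.

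The remaining 7 genes formed a continuous low group, in which each overlapped the next. *Mgme1* had 1.18 CPM per kb, *Twnk* 1.09, *Top1mt* 0.835, *Tfam* 0.561, *Polg* 0.400, *Polrmt* 0.226 and *Polg2* 0.0914. So the polymerases for RNA (*Polrmt*) and DNA (*Polg*) and the subunit *Polg2* had the least transcript per length. The same order was found with the union of all exons as the length, but the values lay closer. *Tfb2m* then had 19.9 CPM per kb, *Tfb1m* 4.76 and *Ssbp1* 1.81. The lowest *Ssbp1* pool, at 1.42, was only just above the highest *Mgme1* pool, at 1.4. Together the 10 genes made up 0.00993% to 0.0107% of all counts of a pool, and *Tfb2m* alone gave 45.6% to 63.3% of their counts.

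**Figure D1:**
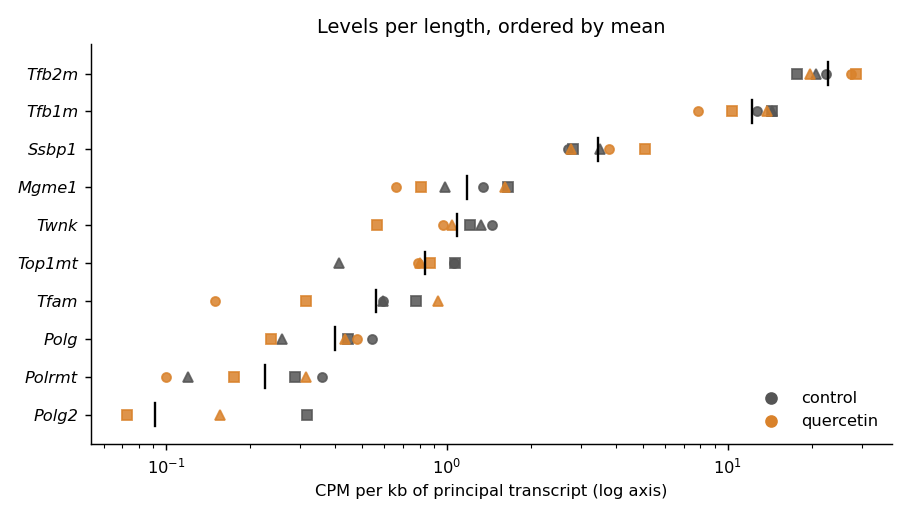
Level of each of the 10 genes in CPM per kb of the principal transcript (log axis), with 1 point per pool (circle, square and triangle for pools 1, 2 and 3), grey for control and orange for quercetin, and a bar at the mean of the 6 pools. *Tfb2m* at 22.8 and *Tfb1m* at 12.2 stand above *Ssbp1* at 3.45, and the 7 other genes lie at means of 1.18 and under; the 3 pools with 0 *Polg2* counts cannot be drawn on a log axis.

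For the comparison of quercetin with control, 8 of the 10 genes had enough counts to be tested, and *Polrmt* and *Polg2* did not. None of the 8 was called (adjusted p under 0.05 and fold change over 2), as was 0% of all 11842 genes tested by edgeR's quasi-likelihood test. At an unadjusted p under 0.05, again none of the 8 was found, against 4.03% of all tested genes (477, of which 253 higher and 224 lower). With library size in place of TMM scaling, 145 of all genes were higher and 362 lower at that p. DESeq2 called 12 genes by both criteria, none of them among the 8, of which it gave 5 no adjusted p. Of the 8 genes, 6 had a lower and 2 a higher mean log2 level with quercetin, and their median log2 fold change was -0.24, beside -0.03 over all tested genes, of which 53.6% were lower. Leaving out 1 pool moved the members' median to -0.07 without quercetin pool 1, -0.11 without control pool 1 (4 genes higher and 4 lower) and -0.41 without quercetin pool 3.

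**Figure D2:**
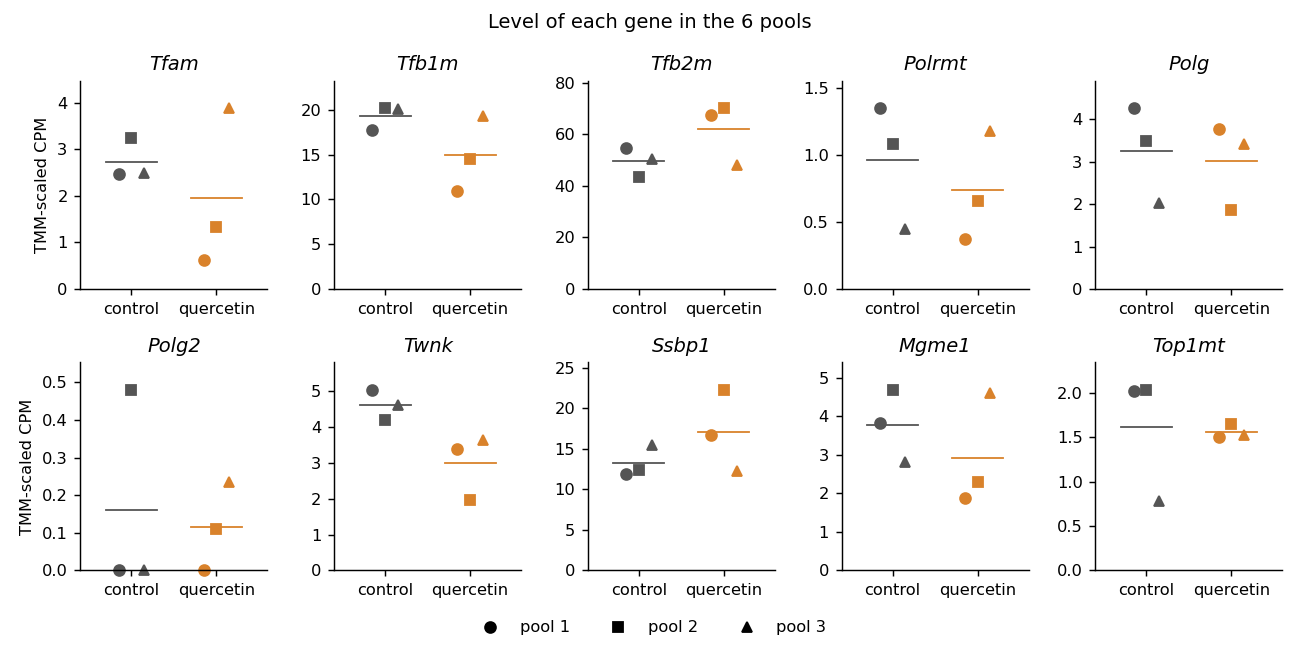
TMM-scaled CPM of each of the 10 genes in the 3 control pools (grey) and 3 quercetin pools (orange), with pools 1, 2 and 3 as circles, squares and triangles, a line at the group mean, and a separate axis from 0 for each gene. In *Twnk* all quercetin pools lie under all control pools, in *Tfb1m*, *Tfb2m*, *Ssbp1* and *Mgme1* quercetin pool 3 lies among the controls, and in *Tfam* above them, away from quercetin pools 1 and 2.

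Among the genes of packaging and transcription, *Tfb2m* (ENSMUSG00000026492, chromosome 1 from 179528055 to 179546267, minus strand) was counted 489, 361 and 450 times in control and 540, 640 and 409 times in quercetin pools. Quercetin pools 1 and 2 were above every control pool in counts and in CPM, while quercetin pool 3 lay between the controls in both. Mean levels were 49.6 ± 5.8 CPM in control and 62 ± 12.1 CPM in treated pools (SD, n = 3). A log2 fold change of 0.32 was fitted, with a 95% interval from -0.13 to 0.77 (adjusted p = 0.988, edgeR's quasi-likelihood test, Benjamini-Hochberg adjusted). Of the 31-base words in *Tfb2m* transcripts, 35.9% also occur in other genes, among them *Gm1818*, between which reads could be split. *Gm1818* had 313, 248 and 330 counts in control and 360, 430 and 344 in quercetin pools, and the summed counts of both genes gave a log2 difference of 0.34 (two-sided exact permutation test, p = 0.2).

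*Tfb1m* (ENSMUSG00000036983, chromosome 17 from 3519256 to 3557781, minus strand) was counted 159, 168 and 179 times in control and 88, 132 and 164 times in quercetin pools. In CPM, quercetin pools 1 and 2 lay under all controls, while pool 3 at 19.3 CPM fell within the control range of 17.8 to 20.2 CPM. The means were 19.4 ± 1.34 and 14.9 ± 4.16 CPM (SD, n = 3), and its log2 fold change was -0.38 (95% interval -0.93 to 0.18, adjusted p = 0.988 in edgeR's test), the opposite sign to that of its relative *Tfb2m*.

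*Tfam* (ENSMUSG00000003923, chromosome 10 from 71225464 to 71238280, minus strand) was counted 22, 27 and 22 times in control and 5, 12 and 33 times in quercetin pools. The quercetin pools thus reached both under and over all controls. The exact 95% Poisson interval of the 5 counts ran from 1.62 to 11.7 and that of the 33 counts from 22.7 to 46.3, 2 intervals of counting error that did not overlap. Levels were 2.73 ± 0.447 CPM in control and 1.94 ± 1.72 CPM in quercetin pools (SD, n = 3). The log2 fold change of -0.48 had a 95% interval from -1.78 to 0.81 (adjusted p = 0.988 in edgeR's test), so a change by 2-fold in the downward direction lies within it.

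*Polrmt* (ENSMUSG00000020329, chromosome 10 from 79736123 to 79746581, minus strand) was counted only 12, 9 and 4 times in control and 3, 6 and 10 times in quercetin pools. Its groups overlapped (exact permutation test, p = 0.6), and a difference was not detectable at this depth.

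Among the genes of the replication fork, *Twnk* (ENSMUSG00000025209, chromosome 19 from 45005663 to 45012762, plus strand) was the only member of the list whose pools did not overlap. It was counted 45, 35 and 41 times in control and 27, 18 and 31 times in quercetin pools. In CPM, every quercetin pool (1.97 to 3.65) was under every control pool (4.21 to 5.05), which was 1 of the 8 tested members beside 5.17% of all tested genes that lay lower without overlap. The means were 4.62 ± 0.421 and 3 ± 0.9 CPM (SD, n = 3), and the exact permutation test gave p = 0.1, the smallest that 3 pools against 3 allow. The log2 fold change was -0.63 (95% interval -1.35 to 0.10, adjusted p = 0.988 in edgeR's test). *Mrpl43* overlaps 12.6% of the exon length of *Twnk* on the other strand, and itself had 0 to 12 counts a pool.

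*Ssbp1* (ENSMUSG00000029911, chromosome 6 from 40471352 to 40484700, plus strand) was counted 106, 103 and 138 times in control and 133, 203 and 104 times in quercetin pools. In CPM, quercetin pools 1 and 2 were above all controls and pool 3, at 12.2 CPM, lay between control pools 1 and 2. Its means were 13.3 ± 1.97 and 17.1 ± 5.02 CPM (SD, n = 3), with a log2 fold change of 0.36 (95% interval -0.24 to 0.96, adjusted p = 0.988 in edgeR's test).

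The catalytic subunit *Polg* (ENSMUSG00000039176, chromosome 7 from 79446231 to 79466362, minus strand) was counted 38, 29 and 18 times in control and 30, 17 and 29 times in quercetin pools. Its groups overlapped almost fully, at 3.26 ± 1.14 and 3.01 ± 1.01 CPM (SD, n = 3). The fitted log2 value of -0.12 carried a 95% interval from -1.02 to 0.79 (adjusted p = 0.995 in edgeR's test), and its sign turned when control pool 1 (0.13) or quercetin pool 2 (0.14) was left out. *Polg2* (ENSMUSG00000020718, chromosome 11 from 106768253 to 106779537, minus strand) was counted 0, 4 and 0 times in control and 0, 1 and 2 times in quercetin pools. Only control pool 2 passed the floor of 3 counts, and no fold change or ratio is given.

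The exonuclease gene *Mgme1* (ENSMUSG00000027424, chromosome 2 from 144270663 to 144281227, plus strand) was counted 34, 39 and 25 times in control and 15, 21 and 39 times in quercetin pools. Quercetin pools 1 and 2 lay under all controls and pool 3 among them, as in *Tfb1m*. The log2 fold change was -0.36 (95% interval -1.28 to 0.55, adjusted p = 0.988 in edgeR's test). The topoisomerase gene *Top1mt* (ENSMUSG00000000934, chromosome 15 from 75657035 to 75678800, minus strand) was counted 18, 17 and 7 times in control and 12, 15 and 13 times in quercetin pools. All its quercetin pools fell within the control range, with a log2 fold change of -0.05 (95% interval -1.06 to 0.97, adjusted p = 0.999 in edgeR's test), and its sign turned without control pool 1 or 2 (0.15 for each).

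The values of single genes depended on single pools. In 7 of the 8 tested genes, quercetin pool 3 was the quercetin pool nearest to the control mean in log2 CPM, which was so for 40.8% of all tested genes, and in *Top1mt* pool 1 was nearer. Pool 3 did not stand apart from both other quercetin pools in each gene, as in *Twnk* and *Polg* it lay beside pool 1 with pool 2 lower. Each pool was left out in turn. The log2 fold change of *Tfam* then ran from -1.46 without quercetin pool 3 to -0.07 without quercetin pool 1.

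Over the same fits *Tfb1m* ran from -0.60 without quercetin pool 3 to -0.20 without quercetin pool 1, and *Mgme1* from -0.84 to -0.13 without the same pools. Leaving out control pool 2 or quercetin pool 2 also brought *Mgme1* nearer to 0, at -0.18 and -0.21. *Twnk* ran from -0.79 without quercetin pool 3 to -0.39 without quercetin pool 2. *Ssbp1* ran from 0.12 without quercetin pool 2 to 0.56 without quercetin pool 3, and *Tfb2m* from 0.22 to 0.48 without the same pools. Leaving out the pool nearest to control moves a fold change away from 0 by construction, so the values without quercetin pool 3 restate where that pool lay and lend no support to a difference. None of the 8 genes passed after adjustment in any of these fits, where the smallest adjusted p was 0.299 in edgeR's test.

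**Figure D3:**
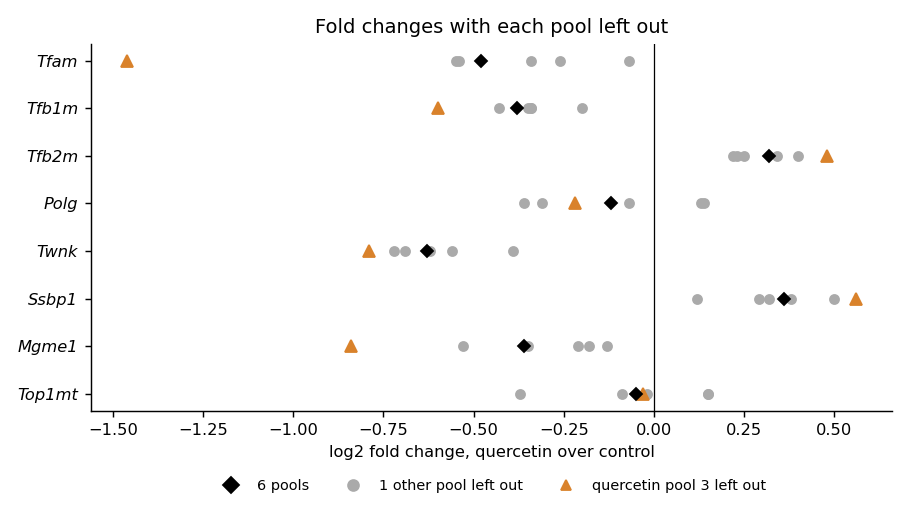
Log2 fold change (quercetin over control) of the 8 tested genes with all 6 pools (black diamonds), with quercetin pool 3 left out (orange triangles) and with each of the other pools left out in turn (grey circles). *Tfam* spans the widest range, from -1.46 to -0.07, *Ssbp1* spans 0.12 to 0.56, and *Polg* and *Top1mt* have circles on both sides of 0; triangles lie far from 0 by construction where pool 3 was the one nearest to control.

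RNA from mtDNA itself was lower with quercetin for all 13 protein genes in these fits of 6 pools. Their summed level was 26950, 24499 and 22390 CPM without quercetin and 22119, 21828 and 17764 CPM with it. All quercetin pools were under all controls, though quercetin pool 1 and control pool 3 were close, and the log2 difference was -0.26 (two-sided exact permutation test, p = 0.1). It was -0.16 without quercetin pool 3, the pool with the lowest sum. Single genes ran from -0.10 in *mt-Nd1* to -0.47 in *mt-Co2* with a median of -0.31. At an unadjusted p under 0.05, 4 of the 13 were found (*mt-Co2*, *mt-Nd3*, *mt-Nd4l* and *mt-Nd5*), beside the 4.03% of all tested genes, and none passed after adjustment (adjusted p = 0.988 in edgeR's test for each). With library size in place of TMM scaling 10 of the 13 were at that p, against 2 with DESeq2, 2 with the replicate number as a block, 2 without control pool 1 and 1 without control pool 2. *mt-Nd1* turned to 0.04 without quercetin pool 3 and to 0.01 without control pool 1, and the other 12 stayed lower in each fit that left out 1 pool. In 7 of the 13 all quercetin pools were under all controls, beside the 5.17% of all tested genes. The 13 genes were measured in the same 6 pools, so these counts of genes are not independent results. The summed level is the comparison between pools. These levels, and the ratios below, are also of RNA captured by its poly(A) tail, and the part of tails in the difference was not tested. The rRNAs *mt-Rnr1* and *mt-Rnr2* had log2 fold changes of -0.76 and -0.42, with groups that overlapped. Both were at an unadjusted p under 0.05, beside the 4.03% of all tested genes, and neither passed after adjustment (adjusted p = 0.988 in edgeR's test for each). With DESeq2 1 of them was at that p, and without control pool 2 or without quercetin pool 1 it was 0. Nuclear copies of mtDNA sequence share up to 100% of the words of an mRNA (*mt-Co2*), and adding the counts of 8 such copies gave a log2 difference of -0.27.

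The 8 tested nuclear genes did not share this single direction, as *Tfb2m* and *Ssbp1* had positive log2 fold changes and the other 6 negative ones. The 95% interval of each of the 8 included 0, as did those of 9 of the 13 mitochondrial mRNAs. Across the quercetin pools, the pool with the lowest mitochondrial mRNA was pool 3, the pool in which 7 of the 8 nuclear genes lay nearest to control. Of the 13 mitochondrial mRNAs, pool 3 was nearest to the control mean in 0, pool 1 in 5 and pool 2 in 8. Over all tested genes the shares were 40.8% for pool 3, 31.3% for pool 1 and 27.8% for pool 2. The 13 mRNAs were measured in the same quercetin pools, so their counts are not independent and largely restate that pool 3 had the lowest sum.

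**Figure D4:**
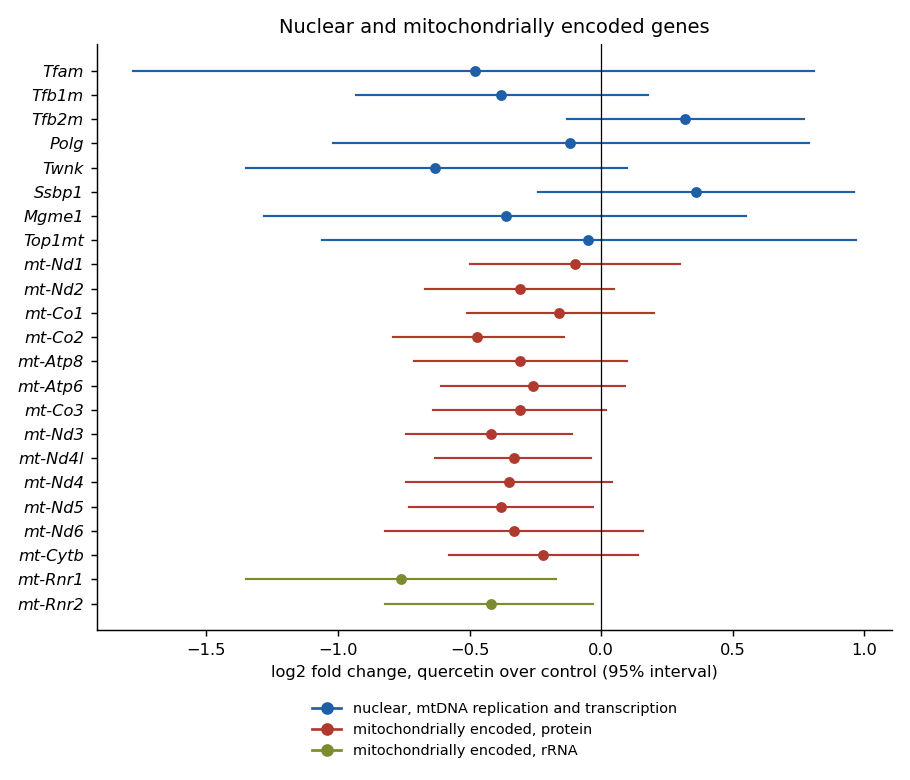
Log2 fold change (quercetin over control) with its 95% interval for the 8 tested genes of the machinery (blue), the 13 mitochondrially encoded protein genes (red) and the 2 mitochondrial rRNAs (green). All 15 mitochondrially encoded genes lie under 0, from -0.10 to -0.76, while *Tfb2m* at 0.32 and *Ssbp1* at 0.36 lie above it, and the intervals of all 8 nuclear genes include 0.

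A ratio within a pool does not depend on how libraries are scaled, so each gene was also set against the summed counts of the 13 mitochondrial mRNAs of the same pool. Per 100000 mitochondrial mRNA counts, control pools held 204, 177 and 226 counts of *Tfb2m* and quercetin pools 306, 322 and 271. Its ratio was higher in every quercetin pool than in every control, by 0.57 on the log2 scale (two-sided exact permutation test, p = 0.1). That was 1 of the 8 tested genes, beside 19.7% of all tested genes, so it does not set *Tfb2m* apart from the transcriptome. No ratio of the 8 was lower without overlap, beside 0.726% of all tested genes.

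For *Ssbp1* the ratio was 44.1, 50.5 and 69.3 per 100000 without and 75.3, 102 and 68.9 with quercetin. Pools 1 and 2 with quercetin were above all controls and pool 3 was just under control pool 3 (log2 difference 0.59, two-sided exact permutation test, p = 0.2). *Twnk*, lower in CPM, overlapped in this ratio, with 18.7, 17.2 and 20.6 per 100000 in control and 15.3, 9.04 and 20.5 in quercetin pools (log2 difference -0.36, two-sided exact permutation test, p = 0.5). The *Tfam* ratio ran from 9.16 to 13.2 per 100000 in control pools, and was 2.83, 6.03 and 21.9 in quercetin pools (log2 difference -0.47, two-sided exact permutation test, p = 0.6). So TFAM message relative to mitochondrial mRNA spread widely among quercetin pools, and the group means differed by less than that spread.

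**Figure D5:**
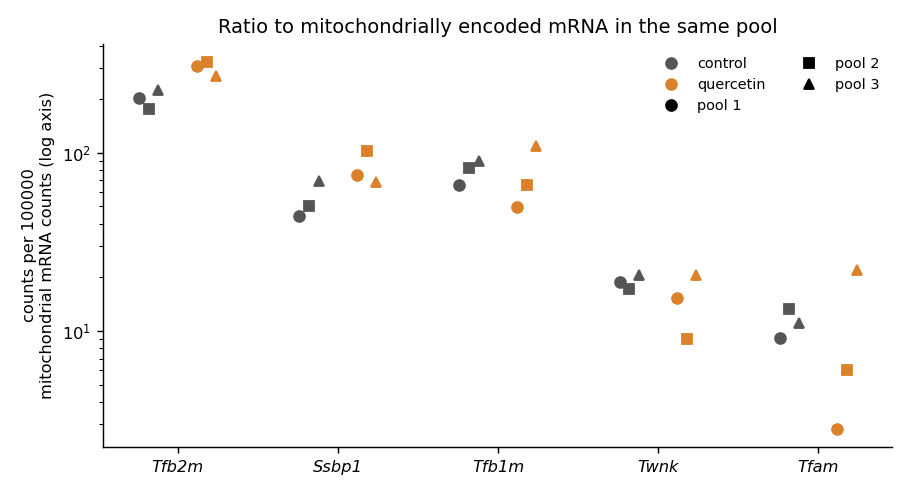
Counts of *Tfb2m*, *Ssbp1*, *Tfb1m*, *Twnk* and *Tfam* per 100000 counts of mitochondrially encoded mRNA in the same pool (log axis), 1 point per pool, grey for control and orange for quercetin, with shapes for pools 1 to 3. *Tfb2m* lies at 177 to 226 in control and 271 to 322 in quercetin pools, while *Tfam* reaches from 2.83 to 21.9 among the quercetin pools.

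Other genes of mtDNA upkeep showed no common direction. Of 22 such genes 19 were tested, 11 with a higher and 8 with a lower mean (9 and 10 with library size as the scaling), a median log2 fold change of 0.03, and none was called. At an unadjusted p under 0.05 were *Rrm2*, a subunit of ribonucleotide reductase, with 2159, 1644 and 1995 control against 2531, 2888 and 2256 quercetin counts (log2 fold change 0.44), and *Slc25a4*, an ADP/ATP carrier, with 52, 62 and 61 against 26, 29 and 36 counts (log2 fold change -0.91). These 2 of 19 stand beside the 4.03% of all tested genes at that p. Neither gene overlapped between the groups in CPM, as was so for 5.42% of all tested genes with higher and 5.17% with lower quercetin pools, and both had an adjusted p = 0.988 in edgeR's test. The largest positive value was that of *Primpol*, a primase-polymerase, at 0.69, whose counts went from 38 to 286 among control pools alone.

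Of 27 other genes that transcribe, process or degrade mitochondrial RNA, 26 were tested, 13 in each direction (9 higher and 17 lower with library size as the scaling), with a median of 0.00. *Fastkd2*, an RNA-binding protein of the mitochondrial ribosomal RNA, was counted 281, 142 and 224 times in control and 399, 336 and 315 times in quercetin pools, which gave 0.75 as log2 fold change (adjusted p = 0.988 in edgeR's test). It was 1 of the 26 at an unadjusted p under 0.05, a share no larger than the 4.03% of all tested genes. Its quercetin pools were all above the controls, beside 5.42% of all tested genes. *Mterf2* had the lowest log2 fold change, -1.34, on 13 to 15 counts in control and 0 to 8 in quercetin pools (adjusted p = 0.988 in edgeR's test), and this became -0.77 without quercetin pool 3. *Mterf2* and *Mrpl12*, a protein of the mitochondrial ribosome, were the 2 of 26 genes lower without overlap, beside the 5.17% of all tested genes, and *Mrpl12* is named because of this count.

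Of 10 nuclear regulators of mitochondrial genes, 7 were tested, 3 with a higher and 4 with a lower mean, none at an unadjusted p under 0.05. *Nrf1* itself was counted 126, 132 and 137 times in control and 130, 113 and 185 times in quercetin pools (log2 fold change 0.15, the highest of the list, and -0.08 without quercetin pool 3), and the coactivator gene *Ppargc1b* had 43, 34 and 25 against 29, 21 and 20 counts (-0.50, the lowest). *Gabpa*, the DNA-binding subunit of GABP, had 5 to 24 counts in the 6 pools, and *Ppargc1a*, coding for PGC-1α, had 0 to 4.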

How the data were processed

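RNA of 6 pools of mouse MII oocytes (3 control, 3 quercetin) had been amplified from poly(A) tails (Smart-seq HT kit). The authors deposited unnormalized counts of reads per Ensembl gene. The paper names Hisat2 and GRCm38.91, whereas the submitters' processing notes list CASAVA 1.8 and TopHat2 2.0.6. The counting program and its handling of strand and of reads with several matches are not given in the sources used here.

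Symbols matched 53274 of 53465 identifiers, and coordinates and lengths came from GENCODE M21 (GRCm38). Counts were filtered with filterByExpr (minimum count 10), scaled by TMM (factors 0.92 to 1.06) and tested in edgeR 4.0.16 (glmQLFit, glmQLFTest, R 4.3.3) with Benjamini-Hochberg adjustment over 11842 genes. Standard errors are the log2 fold change over the square root of F. Exact permutation tests (scipy 1.17.1) used log2 CPM with a prior count of 2 for single genes, and log2 CPM without a prior count for sums. Ratios were of unscaled counts, with 2 added to the count of the gene, on the log2 scale. Overlap was judged on TMM-scaled CPM, and for ratios on the log2 ratio. Words of 31 bases measured shared sequence.

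The 10 genes and the lists were chosen with earlier results of these data known. All 10 are named, with the mitochondrially encoded genes. Of the other lists, genes called or at an unadjusted p under 0.05 and the highest and lowest log2 fold change are named. DESeq2 1.42.0, other scalings and filters, a replicate block and leaving out each pool were the alternatives. The sum of *Tfb2m* with *Gm1818* and the principal transcript as length were added after seeing the data.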

Additional observations from a re-analysis of the deposited data

How the results depend on the processing

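Of 260 values recomputed under alternatives, 232 kept their direction and side of the threshold, with counts within 1.5 times. This tally says little about stability. The adjusted p of the machinery genes stayed at 0.299 or above, far from the threshold. The change from 6 lower members to 4 without control pool 1 also counted as kept. No gene of the machinery was called under any alternative that gave it an adjusted p. The number of genes called was 12 with DESeq2, 3 with no filter on low counts, and 0 to 7 over the fits without 1 pool. Genes at an unadjusted p under 0.05 numbered 780 with no filter and 241 to 1563 when each pool was left out. With at least 10 counts in every pool, 5 other genes of mtDNA upkeep were lower in place of 8, as fewer genes were tested, and *Tfam* and *Top1mt* gave no value. When each pool was left out, the log2 fold change ran from -0.36 to 0.14 for *Polg* and from -0.37 to 0.15 for *Top1mt*. In the same fits, the log2 difference relative to mitochondrial mRNA ran from -1.18 to 0.09 for *Tfam*, -0.45 to 0.11 for *Tfb1m*, -0.43 to 0.31 for *Polrmt*, -0.06 to 0.50 for *Polg*, -0.60 to 0.15 for *Mgme1* and -0.01 to 0.51 for *Top1mt*. The causes were not tested. Pools of the same number correlated at 0.296, 0.101 and -0.0303 in their deviations from the group means. Pools of different numbers ran from -0.299 to 0.176, so 0.296 was the highest value. Whether the numbers pair the pools cannot be settled from so few values. With a replicate block, 0 genes were called and 492 were at an unadjusted p under 0.05, *Top1mt* turned to 0.02, and the other 7 tested genes kept their direction. Depth limits *Polrmt* and *Polg2*, with at most 12 counts in a pool, and the planned ratio of *Polg2* was left out because both group means lay under 3 counts.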
